A study of Mus musculus with 18 samples.

Results

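Long-term haematopoietic stem cells (LT-HSC) of DERARE knockout mice with the Wnt5a label (KO Wnt5a, 3 libraries, described as a rescue of the knockout) were compared with LT-HSC of knockout mice without it (KO Ctrl, 3 libraries, described as knockout and as a wt control). These are 6 of the 18 libraries of the series, and they were chosen by their sample titles. Both groups lack DERARE, an enhancer-like element at a distance from the Hoxb genes through which retinoic acid receptors act on them. The cells were bone marrow LT-HSC, gated as lineage-negative, Sca-1 positive, c-Kit positive, CD34 negative, Flk2 negative and CD49b low, and were lysed in small volumes for RNA-seq. Where the knockout had to be set against wild type, the libraries titled Wnt5a (3) and WT (3) were used, which the headers of the deposited table mark as wild type. The labels give no strain, age or sex, do not say whether animals were pooled, and do not say how, at what dose or for how long Wnt5a was given.

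Wnt5a is a secreted ligand of noncanonical Wnt signalling. It binds Frizzled receptors with the coreceptors Ror1, Ror2 and Ryk, and it acts through the planar polarity branch, with Vangl and Prickle proteins, small GTPases and JNK, and through calcium, calcineurin and NFAT. In mouse LT-HSC it has been studied for its effects on quiescence, on the small GTPase Cdc42 and on cell polarity. LT-HSC also carry transcripts of the megakaryocyte lineage, such as Vwf and Pf4, since some of them are biased towards platelet formation.

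Values are the deposited FPKM, fragments scaled to transcript length and library size. Their smallest steps imply depths of 34800000 to 37400000 fragments in KO Wnt5a and 22600000 to 41200000 in KO Ctrl, with KO Ctrl replicate 1 the shallowest. A 1 kb transcript with 3 fragments would then have 0.0728 to 0.133 FPKM, a floor that covers counting error only. A gene was tested if 3 or more of the 6 libraries had 1 FPKM or above, which left 12187. Fold changes are differences of log2(FPKM + 1), KO Wnt5a minus KO Ctrl, with the SE from limma, and they understate the change of genes near 1 FPKM. Calls were made where the p-value after Benjamini-Hochberg adjustment was below 0.05. The labels do not say that replicates came from separate animals, so the p-values measure the spread between libraries, which may be technical.

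The libraries carried the transcripts of LT-HSC. The 10 listed LT-HSC markers summed to 341 to 378 FPKM in KO Wnt5a and 357 to 370 FPKM in KO Ctrl, and none was called. Kit, which encodes c-Kit, had 28.2, 25.5 and 33.1 FPKM in KO Wnt5a, against 22.6, 33.6 and 31.9 FPKM in KO Ctrl. Ly6a, which encodes Sca-1, had 172, 165 and 201 FPKM in KO Wnt5a, against 163, 201 and 190 FPKM in KO Ctrl. The ranges of both genes overlapped. Flt3, which encodes Flk2, and Itga2, which encodes CD49b, did not pass the filter. Cd34 went against the gate, since its transcript had 309, 300 and 312 FPKM in KO Wnt5a and 437, 371 and 399 FPKM in KO Ctrl, although the cells were sorted as CD34 negative. Wnt5a itself did not exceed 0.014 FPKM in any of the 6 libraries.

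The groups differed in 164 of 12187 genes, or 1.35%, and most of these were lower with Wnt5a. In KO Wnt5a 115 genes fell (0.944% of those tested) and 49 rose (0.402%). The largest falls were those of the neuropeptide gene Npy and the focal adhesion gene Tgfb1i1, and the largest rises were those of an immunoglobulin segment, the microRNA gene model Gm25025 (4.08), the small nucleolar RNA gene model Gm25436 (3.73), the ribosomal protein gene Rpl39l and the immune adaptor gene Tyrobp. Both gene models were listed at 0 in all KO Ctrl libraries, so their fitted values are no fold, and their calls were lost in 6 and 5 of the 6 fits that left out a library, with adjusted p up to 0.127 and 0.12. The change reached at least 1 on the log2 scale in 81 of the genes that fell and 24 of those that rose. The median log2 fold change was 0.05 over all genes tested, against -1.23 over the genes that fell and 0.95 over those that rose. Unadjusted p was below 0.05 in 1391 genes (11.4%). The 3 and 3 libraries did not overlap in 2215 of the tested genes (18.2%) and in 163 of the called genes, the exception being the meiotic gene Syce1, whose call was lost in 4 of the 6 fits that left out a library, with adjusted p up to 0.147. Of the called genes, 141 code for protein.

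**Figure D1:**
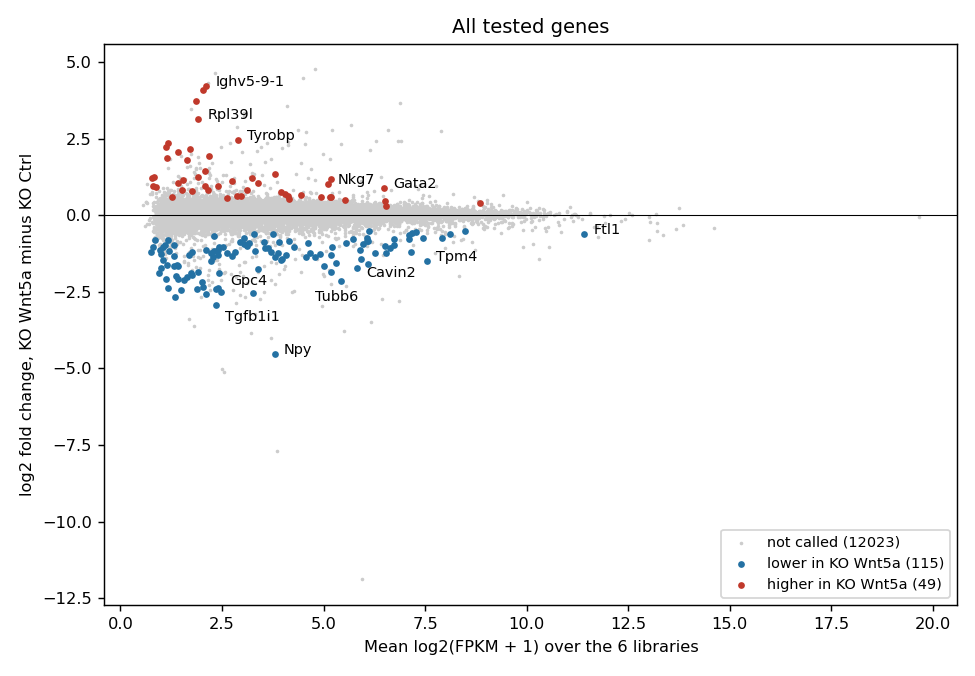
Difference between KO Wnt5a and KO Ctrl, as a log2 fold change, against the mean log2(FPKM + 1) over the 6 libraries, for 12187 genes. Points below 0 are lower in KO Wnt5a, and the 115 genes called lower outnumber the 49 called higher.

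KO Ctrl replicate 1 weighed on the genes that fell. It was the highest of the KO Ctrl libraries in 89 of the 115 genes called lower, and in 29.4% of all genes tested. Without it 82 genes were called, 29 higher and 53 lower. Of the original calls, 52 of the 115 lower genes and 20 of the 49 higher genes kept theirs, and all 164 kept their direction. Calls also dropped when KO Wnt5a libraries were left out. There were 24 higher and 61 lower without KO Wnt5a replicate 2, and 20 higher and 60 lower without KO Wnt5a replicate 3. Leaving out each of the 6 libraries in turn, 60 genes kept their call every time, 47 lower and 13 higher. In 35 of the called genes, 12 higher and 23 lower, the group with the lower values was below 1 FPKM in all its libraries, so that they were tested only because of the group in which they were high. The same held for 0.714% of all genes tested. The part of the lower depth of KO Ctrl replicate 1 in these differences was not tested.

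Among the 12 genes that fell most, Npy stood first. It encodes neuropeptide Y, a secreted peptide best known from sympathetic neurons (ENSMUSG00000029819, chromosome 6, 49822710 to 49829507 in GRCm38). It had 2.04, 3.16 and 0.949 FPKM in KO Wnt5a, against 116, 45.2 and 54.0 FPKM in KO Ctrl. Every KO Wnt5a library was far below every KO Ctrl library, and the log2 fold change was -4.52 (SE 0.45, adjusted p = 0.000104). The neuropeptide Y receptors Npy1r, Npy2r, Npy4r, Npy5r and Npy6r did not exceed 0.057 FPKM in any of the 6 libraries.

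Tgfb1i1, which encodes the focal adhesion protein Hic-5 (ENSMUSG00000030782, chromosome 7, 128246812 to 128255699), had 0.867, 1.72 and 0.239 FPKM in KO Wnt5a and 15.9, 8.78 and 15.3 FPKM in KO Ctrl (log2 fold change -2.91, SE 0.33, adjusted p = 0.000104). Gpc4, a cell surface heparan sulfate proteoglycan (ENSMUSG00000031119, chromosome X, 52053021 to 52165252), had 1.04, 1.45 and 1.60 FPKM in KO Wnt5a and 17.3, 9.67 and 11.03 FPKM in KO Ctrl (-2.50, SE 0.26, adjusted p = 3.65e-05). The groups did not overlap for either gene. None of 26 tested genes on the list of integrins and adhesion was called, and the median of that list was 0.05. Gpc4 was the only glypican to pass the filter: Gpc1, Gpc2, Gpc3, Gpc5 and Gpc6 stayed below 1 FPKM in all 6 libraries. Ccn1 encodes a secreted matrix protein induced by serum and by YAP (ENSMUSG00000028195, chromosome 3, 145646976 to 145649981). It had 1.68, 0.336 and 2.14 FPKM in KO Wnt5a, against 7.09, 11.1 and 15.8 FPKM in KO Ctrl (-2.40, SE 0.28, adjusted p = 0.000104). Tubb6, a beta-tubulin, had 17.5, 24.1 and 17.2 FPKM in KO Wnt5a, against 98.0, 68.6 and 105 FPKM in KO Ctrl (-2.15, SE 0.26, adjusted p = 0.000146). Its more abundant relatives did not pass the test: Tubb5 had 256, 249 and 270 FPKM in KO Wnt5a and 244, 281 and 271 FPKM in KO Ctrl, and Tubb4b had 318, 326 and 326 FPKM in KO Wnt5a and 323, 355 and 368 FPKM in KO Ctrl. Efemp2, which encodes the elastic fibre protein fibulin-4, had 1.03, 1.41 and 1.53 FPKM in KO Wnt5a and 22.6, 5.96 and 9.57 FPKM in KO Ctrl, its highest value being KO Ctrl replicate 1.

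Of the other genes among the 12, the immunoglobulin segment Ighv5-12 is described with the other segments. Flt1 encodes VEGF receptor 1 and had 1.39, 0.297 and 0.346 FPKM in KO Wnt5a, against 9.72, 5.61 and 7.51 FPKM in KO Ctrl (-2.39, SE 0.30, adjusted p = 0.00018). Ptgir, the prostacyclin receptor, had 0.377, 0.201 and 0.029 FPKM in KO Wnt5a, against 12.3, 2.98 and 4.29 FPKM in KO Ctrl (-2.45, SE 0.38, adjusted p = 0.00181). F10, coagulation factor X, had 0.630, 1.76 and 0.512 FPKM in KO Wnt5a, against 9.15, 7.34 and 6.25 FPKM in KO Ctrl (-2.16, SE 0.30, adjusted p = 0.00078). In all 3 genes the highest KO Wnt5a library lay below the lowest KO Ctrl library. Ptgir passed the filter only through KO Ctrl. Rasal1, a Ras GTPase-activating protein, ranged from 0.032 to 2.40 FPKM in KO Wnt5a and from 3.46 to 14.2 FPKM in KO Ctrl (adjusted p = 0.045). Serpinb10, a serine protease inhibitor, ranged from 1.01 to 4.89 FPKM in KO Wnt5a and from 13.6 to 39.1 FPKM in KO Ctrl (adjusted p = 0.0255), but it shares exons on the same strand with Serpinb2, which averaged 11.5 ± 6.68 FPKM in KO Wnt5a and 129 ± 140 FPKM in KO Ctrl (SD, n = 3 each), so that fragments of the pair may not be told apart. Of the 12, 9 kept their call whichever library was left out. Serpinb10 and Rasal1 did not, with adjusted p = 0.118 and 0.196 without KO Ctrl replicate 1, nor did Efemp2, with 0.0665 without KO Wnt5a replicate 1. Each lost its call in 4 of the 6 fits that left out a library.

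**Figure D2:**
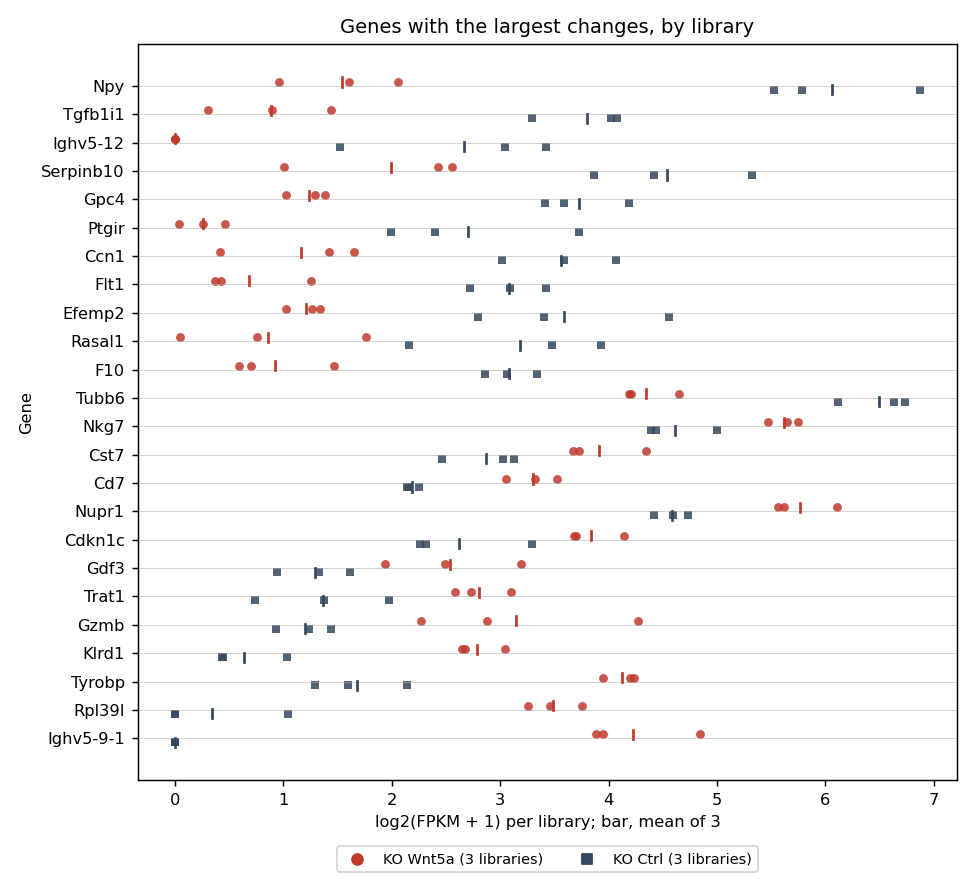
Values per library, as log2(FPKM + 1), of the 12 genes that fell most and the 12 that rose most, with KO Wnt5a as circles above KO Ctrl as squares and a bar at the mean of 3. In each gene the libraries of the groups do not overlap, which the choice of genes required.

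Upstream sequences of 3 genes that fell are shown as examples of a matrix protein gene, an antioxidant enzyme gene and a platelet receptor gene described here. Each run is the 250 bases before the RefSeq start on GRCm38.p6, 5′ to 3′ on the strand of the gene: Ccn1 at chr3:145649986-145650235 on the minus strand, Srxn1 at chr2:152105274-152105523 and Gp1ba at chr11:70638872-70639121 on the plus strand. Capitals mark matches, on either strand, to GGAATG, the core bound by TEAD factors, to GGAAGT, bound by ETS factors, to TGACNNNGC, the core of the antioxidant response element, and to TGACTCA, bound by AP-1 and NF-E2. Of the forms of the GATA factor motif only AGATAA was also searched. TGATAA, another form, was not searched, and it occurs on both strands of the Gp1ba run in lower case.
Ccn1: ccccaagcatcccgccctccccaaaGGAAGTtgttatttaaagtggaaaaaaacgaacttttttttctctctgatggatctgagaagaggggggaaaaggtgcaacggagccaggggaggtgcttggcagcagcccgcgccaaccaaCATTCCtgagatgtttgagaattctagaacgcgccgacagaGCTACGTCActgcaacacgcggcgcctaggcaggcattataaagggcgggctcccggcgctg
Srxn1: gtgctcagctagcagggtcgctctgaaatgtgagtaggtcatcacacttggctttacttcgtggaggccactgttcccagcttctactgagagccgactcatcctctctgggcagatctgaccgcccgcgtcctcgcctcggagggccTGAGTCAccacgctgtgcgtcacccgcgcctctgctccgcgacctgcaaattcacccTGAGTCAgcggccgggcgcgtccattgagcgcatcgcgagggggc
Gp1ba: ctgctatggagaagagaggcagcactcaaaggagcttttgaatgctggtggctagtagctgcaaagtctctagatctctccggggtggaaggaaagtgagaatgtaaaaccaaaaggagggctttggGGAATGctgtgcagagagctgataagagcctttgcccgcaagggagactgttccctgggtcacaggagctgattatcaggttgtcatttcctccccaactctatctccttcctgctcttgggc
The capitals in Ccn1 are GGAAGT on the strand of the gene, 225 to 220 bases upstream, and on the opposite strand GGAATG, 103 to 98 bases upstream, and TGACNNNGC, 62 to 54 bases upstream. In Srxn1 they are TGACTCA on the opposite strand, at 102 to 96 and at 45 to 39 bases upstream, and in Gp1ba they are GGAATG, 123 to 118 bases upstream. RefSeq promoters were matched for 87 of the 115 genes that fell, 32 of the 49 that rose and 8892 of all tested genes. GGAATG was present in 19.5% of the promoters of genes that fell, 6.25% of those of genes that rose and 10.1% of all. TGACNNNGC was present in 20.7%, 3.12% and 11.9% of the same sets, TGACTCA in 6.9%, 3.12% and 2.73%, AGATAA in 6.9%, 6.25% and 5.85%, and GGAAGT in 14.9%, 25.0% and 24.4%. These shares are descriptions of the letters in these windows and were not tested.

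Megakaryocyte and platelet genes were the list with the most calls, all of them lower in KO Wnt5a. Of 36 tested genes 10 fell and none rose, and 34 had a negative log2 fold change. The median of the list was -0.55, against 0.05 over all genes tested. Cavin2, which encodes a caveolar coat protein abundant in platelets (ENSMUSG00000045954, chromosome 1, 51289126 to 51302960), had 30.5, 29.1 and 30.6 FPKM in KO Wnt5a, against 127, 93.8 and 87.1 FPKM in KO Ctrl (-1.72, SE 0.20, adjusted p = 0.000104). Alox12, platelet 12-lipoxygenase, had 0.778, 1.25 and 0.876 FPKM in KO Wnt5a, against 4.35, 5.88 and 8.70 FPKM in KO Ctrl (-1.86, SE 0.28, adjusted p = 0.00112). Neither gene's groups overlapped, and the KO Wnt5a libraries lay close together.

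Plek, which encodes pleckstrin, a protein kinase C substrate of platelets, had 111, 95.9 and 76.5 FPKM in KO Wnt5a and 287, 198 and 173 FPKM in KO Ctrl (-1.19, SE 0.24, adjusted p = 0.0183). Gp1bb, a subunit of the receptor for von Willebrand factor, had 79.9, 52.8 and 61.4 FPKM in KO Wnt5a and 153, 127 and 107 FPKM in KO Ctrl (-0.99, SE 0.21, adjusted p = 0.0214). The other called members were Gp1ba and Gp9 of the same receptor complex, the secretory GTPase gene Rab27b, the thrombin receptor gene F2rl2, thrombospondin-1 (Thbs1) and clusterin (Clu), with log2 fold changes from -1.88 (Thbs1) to -0.65 (Gp9). These 8 calls, unlike those of Cavin2 and Alox12, were each lost in 3 or more of the 6 fits that left out a library, with the highest adjusted p at 0.108 for Plek, 0.131 for Gp1bb, 0.147 for Gp1ba, 0.119 for Rab27b, 0.117 for F2rl2, 0.172 for Thbs1 and 0.191 for Clu. Gp9 lost its call in all 6, with adjusted p up to 0.186. The most abundant member did not pass the test: Pf4, platelet factor 4, had 9813, 9012 and 6682 FPKM in KO Wnt5a and 17644, 10482 and 11923 FPKM in KO Ctrl (adjusted p = 0.489). Nor did Vwf, von Willebrand factor, with 130, 126 and 135 FPKM in KO Wnt5a and 195, 113 and 176 FPKM in KO Ctrl, nor Ppbp, with 253, 160 and 103 FPKM in KO Wnt5a and 1316, 337 and 591 FPKM in KO Ctrl (adjusted p = 0.1).

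The 7 megakaryocyte markers summed to 7192 to 10517 FPKM in KO Wnt5a and 11328 to 19562 FPKM in KO Ctrl. The same sum was 12446 to 28312 FPKM in Wnt5a and 20715 to 30551 FPKM in WT. KO Ctrl replicate 1 was the highest KO Ctrl library in 28 of the 36 genes. The list held 2 called genes, Cavin2 and Alox12, without KO Ctrl replicate 1, and also 2 without KO Wnt5a replicate 2 and 2 without KO Wnt5a replicate 3, with medians of -0.39, -0.59 and -0.43. In bulk libraries fewer cells of a type and less RNA per cell cannot be told apart.

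**Figure D3:**
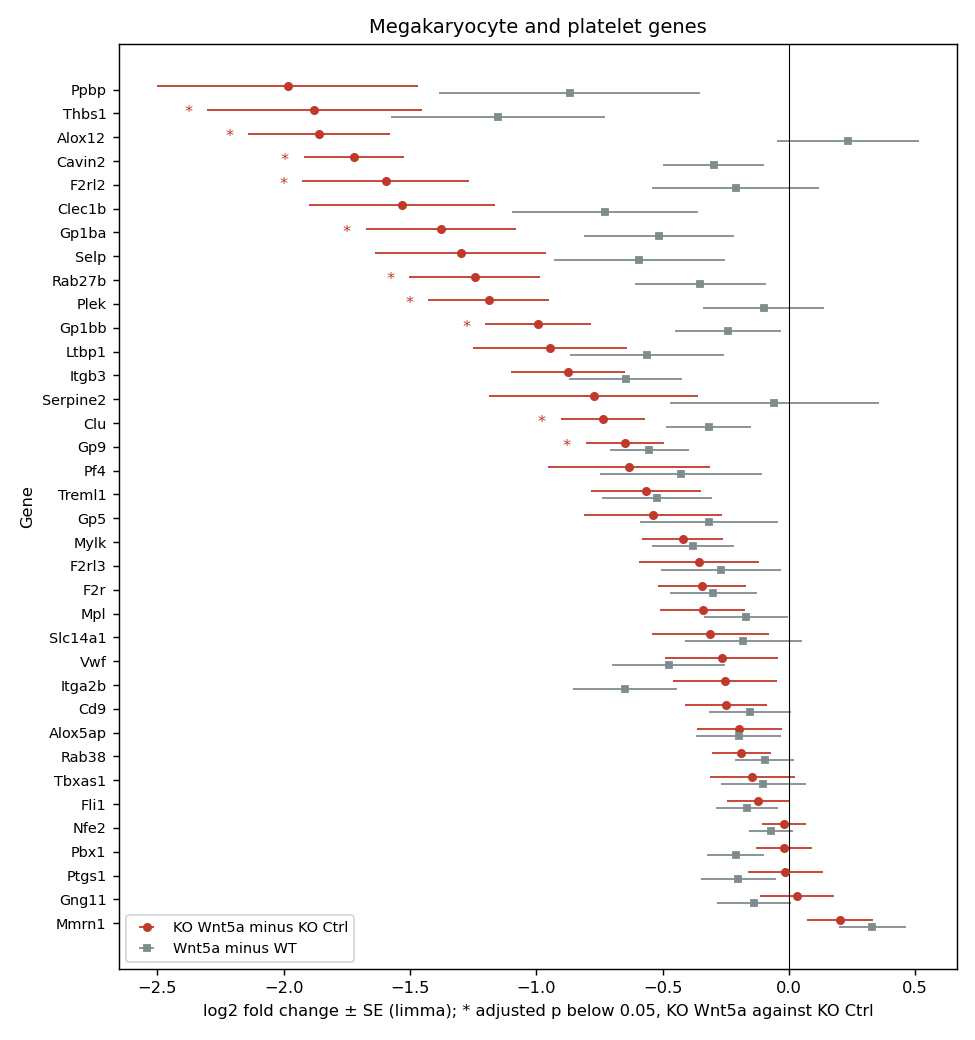
Log2 fold changes with SE of the 36 megakaryocyte and platelet genes, for KO Wnt5a minus KO Ctrl (circles) and for Wnt5a minus WT (squares), ordered by the circles; stars mark the 10 called genes. The circles run from Ppbp, the lowest, to Mmrn1, the highest, and 34 of 36 lie below 0.

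Of 43 tested genes for actin and cell shape, 3 fell and none rose, with a median of -0.12. Tpm4, a tropomyosin of nonmuscle cells, had 129, 111 and 93.2 FPKM in KO Wnt5a, against 415, 263 and 273 FPKM in KO Ctrl (-1.49, SE 0.21, adjusted p = 0.00111). Zyx, which encodes the focal adhesion protein zyxin, had 225, 219 and 218 FPKM in KO Wnt5a, against 339, 333 and 349 FPKM in KO Ctrl (-0.62, SE 0.15, adjusted p = 0.0428). Both genes were lower in every KO Wnt5a library. The third called member was Cavin2, which is also on the platelet list. Tpm4 overlaps Gm26586 on the opposite strand, which these unstranded libraries cannot separate, and Zyx lost its call whichever library was left out, with adjusted p up to 0.145. Among 12 tubulins Tubb6 and Tuba1a fell, the Tuba1a call being lost in 4 of the 6 fits that left out a library, with adjusted p up to 0.161.

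Targets of p53, the transcription factor of the DNA damage response, fell in 3 of 39 tested genes and rose in none, with a median of -0.23. Cdkn1a encodes the cyclin-dependent kinase inhibitor p21 (ENSMUSG00000023067, chromosome 17, 29090976 to 29100727). It had 34.7, 37.3 and 34.6 FPKM in KO Wnt5a, against 113, 93.6 and 88.9 FPKM in KO Ctrl (-1.44, SE 0.21, adjusted p = 0.00105). Phlda3, an inhibitor of Akt, had 11.9, 9.04 and 8.83 FPKM in KO Wnt5a, against 22.4, 23.3 and 32.0 FPKM in KO Ctrl (-1.29, SE 0.19, adjusted p = 0.00112). The KO Wnt5a libraries of both genes were all below those of KO Ctrl. Ccng1, cyclin G1, had 55.4, 45.2 and 49.4 FPKM in KO Wnt5a, against 112, 87.7 and 75.3 FPKM in KO Ctrl. Its call was lost in 3 of the 6 fits that left out a library, among them that without KO Ctrl replicate 1 (-0.69, adjusted p = 0.102). Other members on the list gave values that did not pass, such as Mdm2, the ubiquitin ligase of p53, at -0.07 (adjusted p = 0.919), and Bax, a pore-forming cell death protein, at -0.58 (0.143). Trp53 itself had missing values and was left out.

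Cdkn1c, which encodes p57, a kinase inhibitor that helps hold LT-HSC in quiescence, moved opposite to Cdkn1a. It had 11.8, 12 and 16.6 FPKM in KO Wnt5a, against 3.80, 3.99 and 8.82 FPKM in KO Ctrl (1.21, SE 0.24, adjusted p = 0.0107). The groups did not overlap, but KO Ctrl replicate 3 lay near the KO Wnt5a range. The call was lost in 3 of the 6 fits that left out a library, among them that without KO Ctrl replicate 1 (1.03, adjusted p = 0.0849). Cdkn1a and Cdkn1c were the calls among the 22 tested genes on the list of quiescence and imprinted genes. Outside that list the imprinted gene Peg10, chosen after its values were seen, was called lower. Its call was lost in 2 of the 6 fits that left out a library, with adjusted p up to 0.0532. Cell cycle lists held no call: none of 60 mitotic genes, 41 DNA replication genes and 23 genes of G1 cyclins, kinases and E2F passed. Mki67, the Ki-67 antigen of cycling cells, had 27.5, 26.1 and 24.2 FPKM in KO Wnt5a and 21.5, 20.8 and 24.4 FPKM in KO Ctrl (adjusted p = 0.524).

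Among 35 antioxidant genes and FoxO targets 2 fell and none rose, with a median of -0.03. Srxn1, which encodes sulfiredoxin, the enzyme that repairs oxidised peroxiredoxins (ENSMUSG00000032802, chromosome 2, 152105516 to 152111376), had 57.0, 49.2 and 42.1 FPKM in KO Wnt5a, against 146, 107 and 101 FPKM in KO Ctrl (-1.23, SE 0.18, adjusted p = 0.00111). Nfe2l2, the transcription factor Nrf2 of the oxidative stress response, had 87.0, 78.6 and 75.0 FPKM in KO Wnt5a, against 176, 118 and 129 FPKM in KO Ctrl (-0.79, SE 0.15, adjusted p = 0.00907). All KO Wnt5a libraries lay below all KO Ctrl libraries in both genes. The Nfe2l2 call was lost in 3 of the 6 fits that left out a library, with adjusted p up to 0.0696. Gclm and Nqo1, further targets of Nrf2, had log2 fold changes of -0.42 and -0.43 and did not pass (adjusted p = 0.123 and 0.266). Blvrb, biliverdin reductase B, the 1 call among 11 erythroid genes, had 73.7, 71.2 and 80.8 FPKM in KO Wnt5a and 156, 140 and 146 FPKM in KO Ctrl (-0.96, SE 0.14, adjusted p = 0.000815).

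The share called lower was 4.76% of the cytokine receptor, Socs and Stat genes tested and 10.5% of the endothelial genes tested. It was 8.33% of the monocyte, macrophage and dendritic cell markers, 4.55% of the immediate early genes and 0.944% of all genes tested. Each list share rests on 1 or 2 genes. Of 42 cytokine receptor, Socs and Stat genes 2 fell: Socs3, a feedback inhibitor of JAK and STAT signalling, had 2.61, 2.24 and 1.44 FPKM in KO Wnt5a and 7.16, 4.82 and 6.72 FPKM in KO Ctrl (-1.23, SE 0.20, adjusted p = 0.00239), and Lifr, the leukaemia inhibitory factor receptor, fell by 0.98 (adjusted p = 0.00907). The Lifr call was lost in 2 of the 6 fits that left out a library, with adjusted p up to 0.0674. Of 19 endothelial genes Flt1 and Plvap fell, the Plvap call being lost in 4 of the 6 fits that left out a library, with adjusted p up to 0.0817. F13a1, the A subunit of coagulation factor XIII, which monocytes and platelets make, had 0.208 FPKM in KO Wnt5a replicate 1 and was listed at 0 in the other two, against 3.95, 3.54 and 3.06 FPKM in KO Ctrl (adjusted p = 0.000104). It was the 1 call among 12 monocyte, macrophage and dendritic cell markers, and it passed the filter only through KO Ctrl. Gadd45g, a growth arrest gene, was the 1 call among 22 immediate early genes (-0.76, adjusted p = 0.0384). Its call was lost in 5 of the 6 fits that left out a library, with adjusted p up to 0.196. Of the 118 called genes outside every list, Cebpb and Ftl1 are described here and were chosen after their values were seen. Cebpb, a myeloid transcription factor, had 18.3, 17.2 and 18.95 FPKM in KO Wnt5a and 81.7, 61.1 and 61.6 FPKM in KO Ctrl (-1.84, SE 0.22, adjusted p = 0.000108), and it overlaps Tmem189 on the opposite strand. Ftl1, the ferritin light chain, had 2318, 2172 and 2170 FPKM in KO Wnt5a and 3321, 3343 and 3443 FPKM in KO Ctrl (-0.60, SE 0.08, adjusted p = 0.000221).

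Tyrobp, among the genes that rose, encodes DAP12, an adaptor with an activating tyrosine motif used by receptors of natural killer and myeloid cells (ENSMUSG00000030579, chromosome 7, 30413760 to 30417585). It had 14.4, 17.4 and 17.8 FPKM in KO Wnt5a, against 1.45, 2.02 and 3.42 FPKM in KO Ctrl (2.45, SE 0.19, adjusted p = 1.09e-06). Every KO Wnt5a library exceeded every KO Ctrl library by a wide margin. With Klrd1 it made up the calls among 20 genes of Tyrobp, Fc receptor and ITAM signalling, a list with a median of -0.08.

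Of 11 T and natural killer cell genes that passed the filter 4 rose and none fell, with a median of 0.38. The log2 fold change was positive in 7 and negative in 4, and 2 were lower at an unadjusted p below 0.05 (limma). Il2rb passed only through KO Wnt5a. With the filter over all 18 libraries 4 of 18 rose, with a median of 0.07, and with no filter 2 of 27, with a median of 0.14. Nkg7, a protein of cytotoxic granules, had 43.3, 52.8 and 49.1 FPKM in KO Wnt5a, against 20.7, 30.9 and 20.01 FPKM in KO Ctrl (1.01, SE 0.15, adjusted p = 0.00112). Klrd1, the lectin receptor CD94 of natural killer cells, had 7.26, 5.27 and 5.39 FPKM in KO Wnt5a, against 0.360, 1.05 and 0.349 FPKM in KO Ctrl (2.15, SE 0.46, adjusted p = 0.0327). Neither gene's libraries overlapped between the groups. Cd7, a surface protein of T, natural killer and early lymphoid cells, had 9.01, 7.33 and 10.5 FPKM in KO Wnt5a, against 3.76, 3.40 and 3.47 FPKM in KO Ctrl (1.12, SE 0.24, adjusted p = 0.0265). Il2rb, the beta chain of the receptors for interleukin-2 and interleukin-15, had 1.17, 1.05 and 3.03 FPKM in KO Wnt5a, against 0.119, 0.104 and 0.191 FPKM in KO Ctrl (1.20, SE 0.20, adjusted p = 0.00351). Both were higher in each KO Wnt5a library. Among the 12 genes that rose most were also Trat1, an adaptor bound to the T cell receptor, at 5.65, 7.57 and 5.01 FPKM in KO Wnt5a and 1.59, 2.93 and 0.675 FPKM in KO Ctrl (1.44, SE 0.25, adjusted p = 0.00474), and Cst7, the cathepsin inhibitor cystatin F (1.04, SE 0.25, adjusted p = 0.0451). The Cst7 call was lost in all 6 fits that left out a library. The defining T cell gene Cd3e was listed at 0 in all 6 libraries, and the 5 T and natural killer cell markers, of which 2 passed the filter, summed to 47.3 to 57.8 FPKM in KO Wnt5a and 21.0 to 33.2 FPKM in KO Ctrl. Most of that sum was Nkg7, the 1 marker called, and 3 of the 5 stayed below 1 FPKM in all 6 libraries. Without KO Ctrl replicate 1 the list held 2 calls, Nkg7 and Il2rb, with adjusted p = 0.149 for Klrd1 and 0.0831 for Cd7, and it also held 2 without KO Wnt5a replicate 1, KO Wnt5a replicate 3 or KO Ctrl replicate 3.

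Of 9 genes of mast cells, basophils and eosinophils that passed the filter 4 rose and none fell, with a median of 0.42. Of these 9, 6 had a positive and 3 a negative log2 fold change, and 2 were lower at an unadjusted p below 0.05 (limma). Mcpt8 and Fcer1a passed only through KO Wnt5a. With the filter over all 18 libraries 4 of 17 rose, with a median of 0.19, and with no filter 2 of 22, with a median of -0.01. Gata2, a transcription factor of stem cells and of mast cells, had 132, 118 and 116 FPKM in KO Wnt5a, against 49.5, 76.9 and 73.7 FPKM in KO Ctrl (0.88, SE 0.18, adjusted p = 0.0192). Fcer1a, the alpha chain of the IgE receptor, had 3.14, 6.06 and 5.76 FPKM in KO Wnt5a, against 0.387, 0.738 and 0.953 FPKM in KO Ctrl (1.797, SE 0.32, adjusted p = 0.00666). Mcpt8, a basophil protease, had 2.85, 3.08 and 3.996 FPKM in KO Wnt5a and was listed at 0, at 0 and at 0.564 FPKM in KO Ctrl (adjusted p = 0.0033). The groups did not overlap in these 3 genes. Gzmb, granzyme B, ranged from 3.82 to 18.4 FPKM in KO Wnt5a and from 0.908 to 1.72 FPKM in KO Ctrl (1.94, SE 0.43, adjusted p = 0.038). The 6 mast cell and basophil markers summed to 14.4 to 28.5 FPKM in KO Wnt5a and 2.82 to 4.30 FPKM in KO Ctrl, while the basophil protease gene Prss34 did not exceed 0.024 FPKM in any of these libraries. Of the 6 markers only 3 passed the filter, the called genes Mcpt8, Fcer1a and Gzmb given above, so the sum in part repeats them. Without KO Ctrl replicate 1 the list held 1 call, Mcpt8, the Fcer1a and Gata2 values being 1.66 (adjusted p = 0.0518) and 0.69 (adjusted p = 0.125). It held 2 calls without KO Wnt5a replicate 1 and 2 without KO Wnt5a replicate 2. Of the 6 fits that left out a library, the Gata2 call was lost in 4 and the Gzmb call in 5. The part of other cells in these rises was not tested.

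Other genes that rose were of mixed kinds. Rpl39l, a paralog of the ribosomal protein gene Rpl39 (ENSMUSG00000039209, chromosome 16, 10170226 to 10174911), had 8.53, 10.02 and 12.5 FPKM in KO Wnt5a, and in KO Ctrl it was listed at 0 in replicates 1 and 2 and had 1.06 FPKM in replicate 3 (adjusted p = 8.72e-07). Rpl39 had 206, 239 and 246 FPKM in KO Wnt5a and 222, 221 and 237 FPKM in KO Ctrl (0.02, adjusted p = 0.971), and none of the 77 cytosolic ribosomal protein genes was called. Fragments shared by Rpl39l and Rpl39 may have been split between them. Nupr1, a stress-induced nuclear protein, had 48.0, 46.4 and 67.8 FPKM in KO Wnt5a and 20.4, 23.2 and 25.6 FPKM in KO Ctrl (1.18, SE 0.17, adjusted p = 0.00105). Cryab, a small heat shock protein and the 1 call among 18 chaperone genes, had 1.99, 1.06 and 2.28 FPKM in KO Wnt5a and 0.082, 0.024 and 0.396 FPKM in KO Ctrl (1.24, SE 0.18, adjusted p = 0.00105). Both were higher in each KO Wnt5a library, and Cryab passed the filter only through KO Wnt5a. Gdf3, a ligand of the TGF-beta family, rose by 1.24 (SE 0.25, adjusted p = 0.0126). Of the 12 genes that rose most, 6 kept their call whichever library was left out. Cst7 lost it in all 6 such fits, Klrd1, Gzmb and Cd7 in 5 of the 6, and Gdf3 and Cdkn1c in 3. The highest adjusted p was 0.149 for Klrd1, 0.136 for Gzmb, 0.0965 for Gdf3 and 0.0849 for Cdkn1c, each without KO Ctrl replicate 1. It was 0.132 for Cd7 without KO Wnt5a replicate 3 and 0.182 for Cst7 without KO Wnt5a replicate 1.

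Of 183 listed immunoglobulin heavy chain variable segments, which B cells join to make antibody genes, 5 passed the filter, each through the group in which it was high, since the other group was below 1 FPKM. All 5 were called, a share that the filter favours. With no filter 2 segments were called higher and 3 lower among 38, with a median of -0.01, and with the filter over all 18 libraries 2 and 3 were called among 43. Ighv5-9-1 (ENSMUSG00000095210, chromosome 12, 113736111 to 113736630) had 27.8, 13.7 and 14.4 FPKM in KO Wnt5a and was listed at 0 in all KO Ctrl libraries (adjusted p = 3.52e-09). Ighv8-8 had 1.39, 7.56 and 3.97 FPKM in KO Wnt5a and was also listed at 0 in KO Ctrl. The other three were lower in KO Wnt5a. Ighv5-12 was listed at 0 in all KO Wnt5a libraries and had 7.24, 9.71 and 1.88 FPKM in KO Ctrl. Ighv1-26 was listed at 0 in all KO Wnt5a libraries and had 3.53, 4.13 and 4.83 FPKM in KO Ctrl. Ighv1-78 had 0, 0 and 0.998 FPKM in KO Wnt5a and 4.33, 2.41 and 2.16 FPKM in KO Ctrl. These segments are short and alike, so fragments may be split between them. The 6 B cell markers summed to 30.7 to 35.5 FPKM in KO Wnt5a and 33.9 to 46.0 FPKM in KO Ctrl, with none called.

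**Figure D4:**
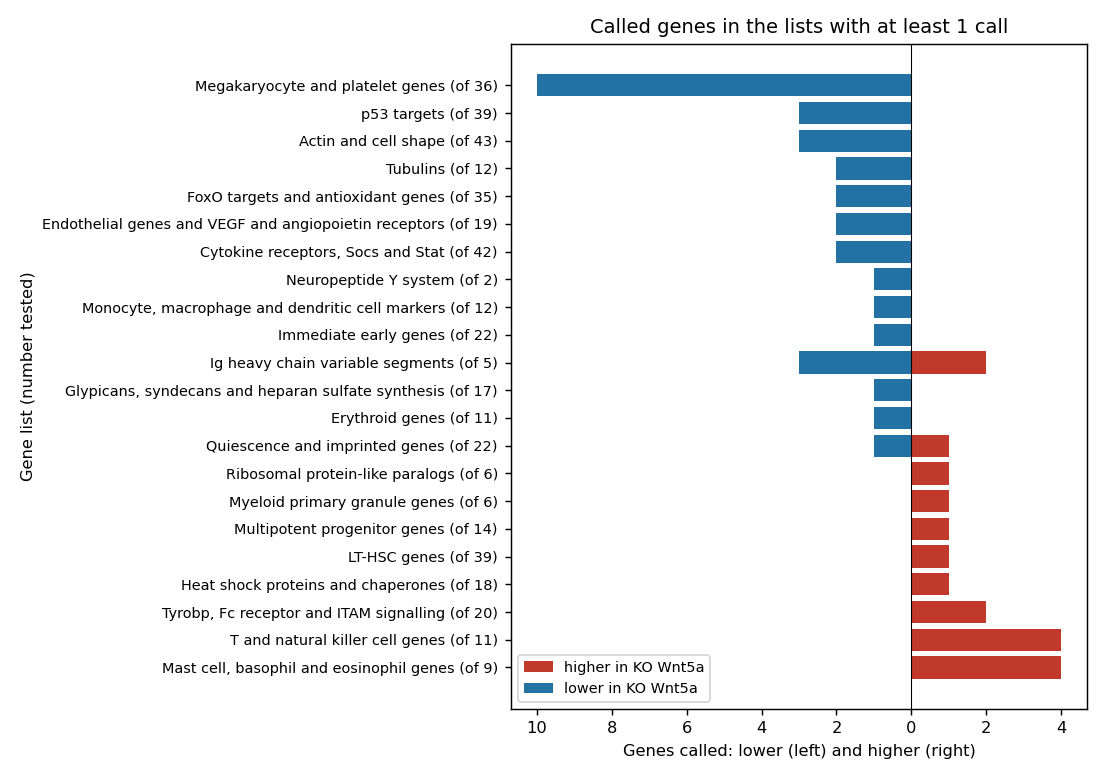
Number of genes called higher (right) and lower (left) in KO Wnt5a in the 22 lists with at least 1 call, with the number of genes tested in brackets. Megakaryocyte and platelet genes hold the most calls, 10 of 36, all lower; a gene on 2 lists is counted in both, and the 5 immunoglobulin segments each passed the filter only through the group in which they were high.

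The lists of receptors and pathways through which Wnt5a acts held no calls. Outside these lists Cdc42ep5, which encodes an effector of Cdc42, was called lower (limma, -1.38, SE 0.28, adjusted p = 0.0172). It was chosen after its values were seen. Its call was lost in 4 of the 6 fits that left out a library, with adjusted p up to 0.103. Of 17 receptors and coreceptors of Wnt5a 6 passed the filter and none was called. Ryk had 16.4, 15.2 and 12.3 FPKM in KO Wnt5a and 10.7, 15.4 and 13.3 FPKM in KO Ctrl (0.15, adjusted p = 0.786), and Fzd8, a Frizzled receptor, gave 0.18 (adjusted p = 0.777). Ror1 and Ror2 stayed below the filter. None of 26 planar polarity, small GTPase and JNK genes was called; Vangl1 had 4.90, 4.34 and 5.21 FPKM in KO Wnt5a and 6.39, 7.51 and 9.53 FPKM in KO Ctrl (-0.59, SE 0.16, adjusted p = 0.0775), and Prickle1 gave -0.39 (adjusted p = 0.291). None of 35 calcium, calcineurin and NFAT genes was called. None of 23 canonical Wnt pathway genes was called, the T cell factor gene Tcf7 giving 0.58 (adjusted p = 0.196).

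The Hoxb genes did not pass either. Of 12 Hoxb genes and transcripts 3 were tested. Hoxb2 had 6.003, 4.999 and 5.93 FPKM in KO Wnt5a and 3.27, 5.05 and 4.37 FPKM in KO Ctrl (0.36, SE 0.19, adjusted p = 0.503). Hoxb7 gave 0.29 (SE 0.28, adjusted p = 0.77) and Hoxb5os, which spans Hoxb5 on the opposite strand, gave -0.14 (SE 0.20, adjusted p = 0.857). Hoxb4, below the filter, had 0.413, 0.430 and 0.852 FPKM in KO Wnt5a and 0.272, 0.298 and 0.521 FPKM in KO Ctrl. Hoxb5, also below the filter, had 0.994, 1.46 and 1.22 FPKM in KO Wnt5a and 0.811, 0.637 and 0.894 FPKM in KO Ctrl. The groups overlapped for Hoxb4 and not for Hoxb5, and in the fit with no filter neither was called (0.19, adjusted p = 0.63 for Hoxb4, and 0.32, adjusted p = 0.479 for Hoxb5). Of 12 retinoic acid receptor and retinoid handling genes none was called, the nearest being Tgm2, a transglutaminase induced by retinoids, at 0.64 (SE 0.16, adjusted p = 0.057), and the receptor gene Rarg at -0.70 (SE 0.18, adjusted p = 0.0659). Among 39 LT-HSC genes only Gata2 was called. In all, 22 of the 46 lists held a call and 24 held none, and 46 of the 955 listed genes tested were called. With 3 libraries a group, a miss does not show that a gene did not differ.

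The Wnt5a difference was then set beside that between the libraries titled Wnt5a and WT, to ask whether it depended on genotype. In wild type 1 of the genes tested was called between Wnt5a and WT (0.00821%), Mcpt8, with 1070 genes at an unadjusted p below 0.05. Only genes that passed the filter on the KO Wnt5a and KO Ctrl libraries were tested, here and in the test that follows. Genes that reached the filter value only in wild type were left out, so these counts do not cover them. Prss34 was among them, with 19.1, 54.2 and 34.8 FPKM in Wnt5a and 0.024, 0 and 0 FPKM in WT. The difference between the differences was tested directly, and 17 genes (0.139%) passed, with 788 at an unadjusted p below 0.05. Of these 17, 14 were also called between KO Wnt5a and KO Ctrl. Vangl1, mt-Nd5 and mt-Cytb were not.

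In Tyrobp, KO Ctrl stood apart from the other groups. Its values were 14.4, 17.4 and 17.8 FPKM in KO Wnt5a, 1.45, 2.02 and 3.42 FPKM in KO Ctrl, 15.9, 19.9 and 12.2 FPKM in Wnt5a and 11.4, 13.9 and 10.97 FPKM in WT. In Npy, Gpc4, Tgfb1i1 and Alox12 KO Wnt5a stood apart, with the lowest values of the 12 libraries. Npy had 0.949 to 3.16 FPKM in KO Wnt5a, 45.2 to 116 FPKM in KO Ctrl, 75.5 to 313 FPKM in Wnt5a and 143 to 251 FPKM in WT. Gpc4 had 1.04 to 1.60 FPKM in KO Wnt5a, 9.67 to 17.3 FPKM in KO Ctrl, 8.62 to 17.6 FPKM in Wnt5a and 14.2 to 21.7 FPKM in WT. F10 was highest in KO Ctrl, with 0.512 to 1.76 FPKM in KO Wnt5a, 6.25 to 9.15 FPKM in KO Ctrl, 1.98 to 5.15 FPKM in Wnt5a and 1.61 to 4.16 FPKM in WT. Vangl1, a core planar polarity gene, was higher in Wnt5a (5.73, 4.72 and 4.25 FPKM) than in WT (2.77, 2.71 and 2.93 FPKM), while its KO Wnt5a values lay below those of KO Ctrl.

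**Figure D5:**
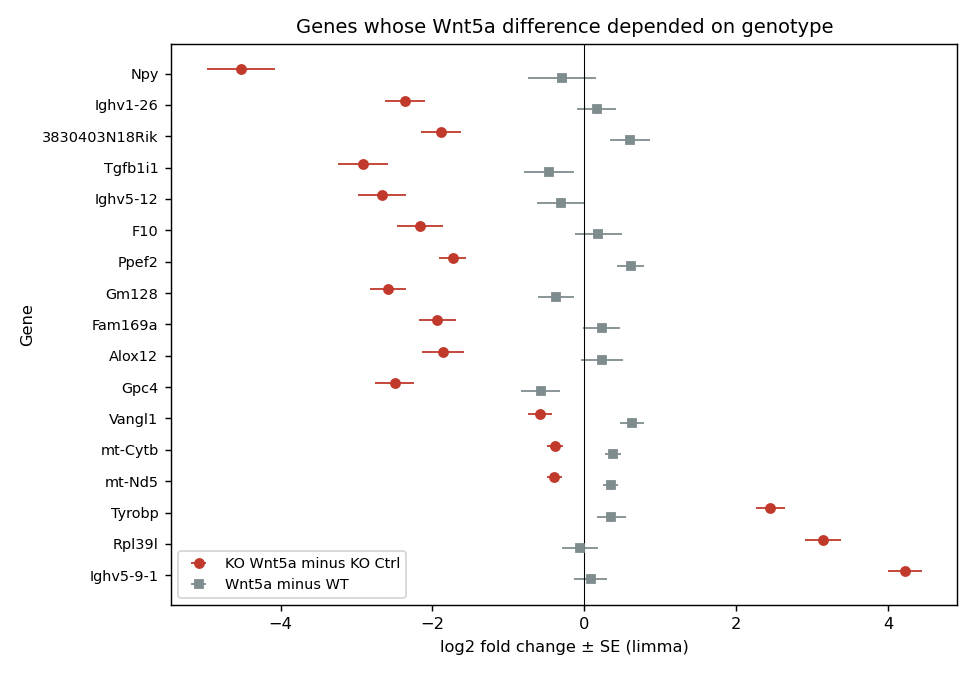
Log2 fold changes with SE, KO Wnt5a minus KO Ctrl (circles) and Wnt5a minus WT (squares), of the 17 genes whose Wnt5a difference depended on genotype. Rpl39l, Tyrobp and Ighv5-9-1 lie to the right in the knockout, the other 14 to the left, and the wild-type differences lie nearer to 0 in all but Vangl1 and mt-Cytb, whose differences there are positive.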

How the data were processed

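RNA was measured in sorted LT-HSC, with SMARTer complementary DNA and Nextera libraries, which keep no strand, per the labels' protocols. Per the submitters' processing notes, TopHat2 2.0.10, Cufflinks and CASAVA 1.8.2 were used with mm10; the annotation release is not given in the sources used here. The authors deposited 1 table of 44349 Ensembl genes as FPKM, a unit the header does not name and that was checked on the values. GENCODE M21 on GRCm38, the assembly of mm10, gave symbols and positions for 44022 identifiers. The 16 genes with missing values were left out. Depth was inferred from the smallest value steps of genes with a single transcript.

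Genes reaching 1 FPKM in 3 or more of the 6 libraries were analysed as log2(FPKM + 1). Group means were estimated from the 18 libraries together by limma 3.58.1 (R 4.3.3), with intensity trend and robust moderation, and p-values were adjusted over all 12187 genes. On simulated data with 200 changed genes it called 80% of 2-fold and 97% of 4-fold changes, with 8 false calls. The simulated noise was independent and, for each gene, of equal spread in every library. No changed gene was drawn from those with low values. These figures therefore do not cover a library that deviates, or changed genes near the floor. Summaries used Python 3.11.15, pandas 2.3.3, numpy 2.4.6 and matplotlib 3.10.9. Replicate numbers were not used as a block, since no label ties them to an animal or day and same-numbered libraries did not deviate together (correlations of -0.07, -0.08 and 0.03).

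The comparison, the 46 gene lists and the tests were chosen with earlier results of these data known. Of 1520 listed genes 1511 were in the table; the others were not analysed here. Named genes were Wnt5a, the sort gate and the tested Hoxb genes; in each direction, the 12 largest changes among called genes without overlap of the groups and whose higher group averaged 5 FPKM or above, leaving out unnamed models and pseudogenes; up to 4 called genes per list by p; up to 2 genes of lists without calls; and measured paralogs. Alternatives were other normalizations, filters, pseudocounts, moderation, sets of libraries, library weights, a replicate block and leaving out each library. Sequences are from RefSeq on GRCm38.p6. Some results are not reported here.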

Additional observations from a re-analysis of the deposited data

Results flagged for a closer look

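In 17 genes the Wnt5a difference in the knockout differed from that in wild type by the direct test (limma, adjusted p below 0.05 over 12187 genes). The filter used only the KO Wnt5a and KO Ctrl libraries, so it favours genes that differ in the knockout over genes that differ in wild type. Ighv5-9-1, Ighv1-26, Ighv5-12, 3830403N18Rik, Ppef2 and Gm128 passed it only through the group of these in which they were high. The value given here is the difference of the 2 log2 differences, knockout minus wild type.

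Higher differences in the knockout were found for Ighv5-9-1 (4.14, adjusted p = 1.47e-06), Rpl39l (3.20, adjusted p = 0.000141) and Tyrobp (2.09, adjusted p = 0.00154). Lower differences were found for Npy (-4.23, adjusted p = 0.0165), Ighv1-26 (-2.52, adjusted p = 0.00601), 3830403N18Rik (-2.49), Tgfb1i1 (-2.45), Ighv5-12 (-2.36), F10 (-2.35, adjusted p = 0.0422), Ppef2 (-2.35, adjusted p = 0.000141), Gm128 (-2.21), Fam169a (-2.16), Alox12 (-2.09), Gpc4 (-1.92) and Vangl1 (-1.21, adjusted p = 0.0422). The mitochondrial transcripts mt-Cytb (-0.76, adjusted p = 0.0462) and mt-Nd5 (-0.74, adjusted p = 0.046) had smaller differences. For Ighv5-9-1, Rpl39l, Ighv1-26, Ighv5-12 and 3830403N18Rik at least 1 group was listed at 0 in all its libraries, so the fitted value is no fold.

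Ppef2, which encodes a protein phosphatase with EF hands, had 0, 0.245 and 0.046 FPKM in KO Wnt5a, against 2.43, 2.78 and 2.70 FPKM in KO Ctrl, and 2.17, 1.62 and 1.92 FPKM in Wnt5a, against 1.61, 0.706 and 0.524 FPKM in WT. It fell in the knockout and was not called in wild type. The transcript mt-Cytb had 2833, 2901 and 2724 FPKM in KO Wnt5a, against 4390, 3789 and 2971 FPKM in KO Ctrl, and 4254, 3615 and 3786 FPKM in Wnt5a, against 2961, 2978 and 2981 FPKM in WT. Its KO Wnt5a libraries were all below those of KO Ctrl, and its Wnt5a libraries were all above those of WT.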

How the results depend on the processing

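Of 49 named called genes 26 kept their call in all 18 alternatives and none changed direction. The 164 calls became 73 with a mean of at least 5 FPKM, 104 with no filter and 109 with a pseudocount of 0.1, and ran from 80 to 167 when each library was left out. The 46 listed calls became 26 with a mean of at least 5 FPKM and 28 with no filter, and ran from 27 to 46 when each library was left out. The 17 genotype-dependent genes became 10 with the filter on 18 libraries, 10 with median-ratio scaling, 3 with a mean of at least 5 FPKM, 11 with no filter, 9 with the 12 libraries without the reserve label and 72 with library weights, and ran from 7 to 28 when each library was left out; the cause was not tested. No interaction can be fitted to the 6 libraries alone. Of the calls 29.9% were higher in KO Wnt5a, against 19.2% with a mean of at least 5 FPKM and 20.8% with only the 6 libraries. With the replicate block 167 genes were called, 19.8% of them higher, and 23 genotype-dependent and 55 listed genes; the numbers do not pair the libraries. The megakaryocyte list held 10 calls, against 2 with no filter, 2 with the 12 libraries, 5 with a pseudocount of 0.1 and 14 with nuclear coding genes of at least 300 bases, an alternative chosen after seeing the data. Log2 fold changes near 0 changed sign without being called: with libraries left out in turn Kit ran from -0.18 to 0.095, Ly6a from -0.13 to 0.021, Rpl39 from -0.029 to 0.097 and Tubb5 from -0.095 to 0.0068, and with median-ratio scaling Rpl39 was at -0.030.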

Other observations

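Transcripts of both sexes were present in all 6 libraries. Xist, which is transcribed from the inactive X chromosome, had 4.05, 4.04 and 6.79 FPKM in KO Wnt5a and 3.64, 4.69 and 6.54 FPKM in KO Ctrl. The Y-linked gene Ddx3y had 5.30, 4.82 and 5.97 FPKM in KO Wnt5a and 7.05, 6.04 and 5.09 FPKM in KO Ctrl. The labels give no sex and do not mention pooling.

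Called genes outside every list, chosen here after their values were seen, included Xcl1, a chemokine of natural killer and T cells, with 3.28, 2.31 and 8.62 FPKM in KO Wnt5a and listed at 0 in KO Ctrl (limma, adjusted p = 0.000104). Plbd1, a phospholipase of myeloid granules, had 3.15, 6.84 and 3.85 FPKM in KO Wnt5a and 0.319, 0.271 and 0.306 FPKM in KO Ctrl (log2 fold change 2.06, SE 0.33, adjusted p = 0.00231). Pdgfb, a growth factor chain that platelets carry, had 2.44, 2.23 and 2.49 FPKM in KO Wnt5a and 8.85, 6.92 and 6.52 FPKM in KO Ctrl (-1.31, SE 0.22, adjusted p = 0.00264). Cdkn2b, which encodes the kinase inhibitor p15, had 0.940, 0.107 and 0 FPKM in KO Wnt5a and 7.56, 2.27 and 3.67 FPKM in KO Ctrl (-1.98, SE 0.33, adjusted p = 0.00298). In each of these 4 genes the libraries of the groups did not overlap. Xcl1 and Plbd1 passed the filter only through KO Wnt5a, and Cdkn2b only through KO Ctrl. Prf1, which encodes perforin of cytotoxic granules, did not exceed 0.159 FPKM in any of the 6 libraries, and Ncr1, a natural killer cell receptor, did not exceed 0.117 FPKM.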
